A study of Mus musculus with 12 samples.

Results

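The HoxD cluster, a row of 9 homeobox genes on mouse chromosome 2, lay almost whole under trimethylated lysine 27 of histone H3 (H3K27me3) in epithelium of the mouse small intestine, before birth and in the adult. The cluster was taken as the stretch from 74490001 to 74610000 on chromosome 2 (mm9), which holds Hoxd13 at its low-coordinate end and Hoxd1 at its high-coordinate end, and every deposited island of enrichment that overlaps it was used. These were 18 islands of 81097 in all 8 lists. The populations, all from small intestine of a mixed C57BL/6 CD1 background, were embryonic epithelium at 2 ages counted in days of gestation, E12.5 and E14.5, and from adults (P60) enterocytes (AE) and stem cells with high Lgr5-EGFP (ISC; Lgr5 marks stem cells of the crypt base). The embryonic cells and the enterocytes were sorted through the same gate, positive for the epithelial protein EpCAM and negative for the endothelial CD31 and the leukocyte CD45, and that gate holds no marker particular to enterocytes. All adult cells came from 2-month-old Lgr5EGFP-Cre-ERT males, so both adult groups carry that allele, and for the embryos no genotype or sex is given. Each population gave 2 chromatin immunoprecipitation libraries, labelled replicates 1 and 2, and 1 input. The lists hold no gene-level readout, so the identity of the sorted cells could not be checked against markers, and nothing says whether replicates came from separate animals or whether animals were pooled, so p-values measure the spread between libraries, which may be technical.

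H3K27me3 is placed by Polycomb repressive complex 2 on the chromatin of silent developmental genes, and Hox clusters are among its classic targets. Hox genes encode homeodomain transcription factors that give cells their position along the body axis, and in a cluster they are switched on in the order in which they stand. At HoxD the Hoxd1 side is the anterior, early side and the Hoxd13 side the posterior, late side, which serves the limb ends, genital bud and hindgut. The mark usually retreats from the active side and stays on the silent side of a cluster.

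The 9 members differ in how rich in CpG, the dinucleotide that marks Polycomb-bound promoters in mammals, their promoters are, and the domain described here ran over all of them in 4 libraries. RefSeq (GRCm38.p6) gave 10 promoter sequences for the 9 genes, 250 bases before to 50 after each start, with 2 for Hoxd11. The count of CG ran from 4 to 37 with a median of 20, against a median of 7 over all 32851 promoters in the table. Hoxd13 had 37 and Hoxd1 29, more than 94.4% and 87.1% of all promoters, whereas Hoxd4 and the first Hoxd11 promoter had 4, more than 31.4% of them. TATAAA, on either strand, was found in 2 of the 10, Hoxd13 and Hoxd4, against 13.6% of all promoters. The sequences of both ends of the cluster and of a CG-poor inner promoter are printed with each CG in capitals, all on the plus strand at GRCm38.p6 chr2:74667975-74668274 (Hoxd13), chr2:74721728-74722027 (Hoxd4) and chr2:74762730-74763029 (Hoxd1), positions that are not those of mm9.
Hoxd13: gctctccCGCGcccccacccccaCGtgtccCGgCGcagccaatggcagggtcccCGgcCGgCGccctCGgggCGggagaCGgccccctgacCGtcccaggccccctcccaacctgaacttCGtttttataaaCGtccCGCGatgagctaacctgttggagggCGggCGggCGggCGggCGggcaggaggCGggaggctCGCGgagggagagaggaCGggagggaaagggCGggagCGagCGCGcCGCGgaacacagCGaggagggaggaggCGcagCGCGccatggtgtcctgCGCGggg
Hoxd4: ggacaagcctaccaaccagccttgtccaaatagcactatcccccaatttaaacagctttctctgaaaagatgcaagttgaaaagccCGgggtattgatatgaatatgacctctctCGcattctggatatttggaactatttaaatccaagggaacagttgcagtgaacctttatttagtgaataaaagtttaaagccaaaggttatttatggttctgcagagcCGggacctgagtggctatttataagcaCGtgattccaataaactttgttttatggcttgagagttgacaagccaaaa
Hoxd1: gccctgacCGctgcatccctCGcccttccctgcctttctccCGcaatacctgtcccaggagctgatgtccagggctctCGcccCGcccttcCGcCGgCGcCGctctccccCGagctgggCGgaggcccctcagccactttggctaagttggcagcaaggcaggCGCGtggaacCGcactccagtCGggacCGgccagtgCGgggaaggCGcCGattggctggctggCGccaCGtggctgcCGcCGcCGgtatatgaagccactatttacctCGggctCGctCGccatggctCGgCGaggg
Sorted by annotated gene start, the protein-coding genes in RefSeq are Hoxd13, Hoxd12, Hoxd11, Hoxd10, Hoxd9, Hoxd8, Hoxd3, Hoxd4 and Hoxd1. Between them are 5 further genes, which are 4 long non-coding RNAs and the microRNA Mir10b. This order follows annotated starts alone, so the relative place of Hoxd3 and Hoxd4 is not read from it. Mir10b lies next to Hoxd4 in that order, and its 5p mature form is shown with its seed, bases 2 to 8, in capitals because it is the cluster's only annotated microRNA (GRCm38.p6 chr2:74726074-74726096, plus strand).
mmu-miR-10b-5p: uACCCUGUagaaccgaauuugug
Evx2, a homeobox gene expressed with Hoxd13 in the limb, is the protein-coding neighbour on the Hoxd13 side, and Mtx2, a mitochondrial outer membrane protein gene, that on the Hoxd1 side. Which neighbours the mm9 window takes in was not determined.

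The lists were called separately per library, and reads are given only inside islands. Lists held 6171 to 17407 islands and 1171968 to 6627853 ChIP reads inside them, and the ISC replicates were the least alike, at 241 and 60.8 Mb covered. Whole-library totals were not used here. Control reads over the HoxD islands stood at 18.5 to 23.5 per kb, against 18.0 to 23.3 over all islands of the lists. Compared within each library, they were less dense at HoxD in all but E14.5 replicate 2 (23.5 against 23.2) and AE replicate 1 (18.5 against 18.0). The widest distance was in ISC replicate 2, at 19.9 against 22.9. Fewer control reads raise the fold, and the part of this in the fold ranks below was not tested.

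In every library at least 90.5% of the 120 kb window was covered by islands. Covered means inside an island, and does not show that each 200 bp window in it was enriched by itself. In the order of replicates 1 and 2, E12.5 libraries had 90.5 and 95.8%, E14.5 libraries 100 and 100%, ISC libraries 100 and 91.2%, and AE libraries 100 and 91.2%. So 4 libraries had the whole window inside 1 island each, and in these every Hoxd gene lay inside the called domain: the posterior members Hoxd13, Hoxd12, Hoxd11, Hoxd10 and Hoxd9, which pattern limb, vertebrae and urogenital tract, the trunk member Hoxd8, and the anterior members Hoxd4 and Hoxd3, which act in hindbrain and neck vertebrae, and Hoxd1, which acts in pain-sensing neurons. In the other 4 libraries 5.0 to 11.4 kb of the window was not called, and which gene, if any, stands there cannot be said, since gene positions on mm9 were not used here. Of all 200 bp windows of the genome the same lists called 2.37 and 2.88% (E12.5), 2.88 and 4.13% (E14.5), 9.14 and 2.3% (ISC), and 3.03 and 3.45% (AE).

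**Figure D1:**
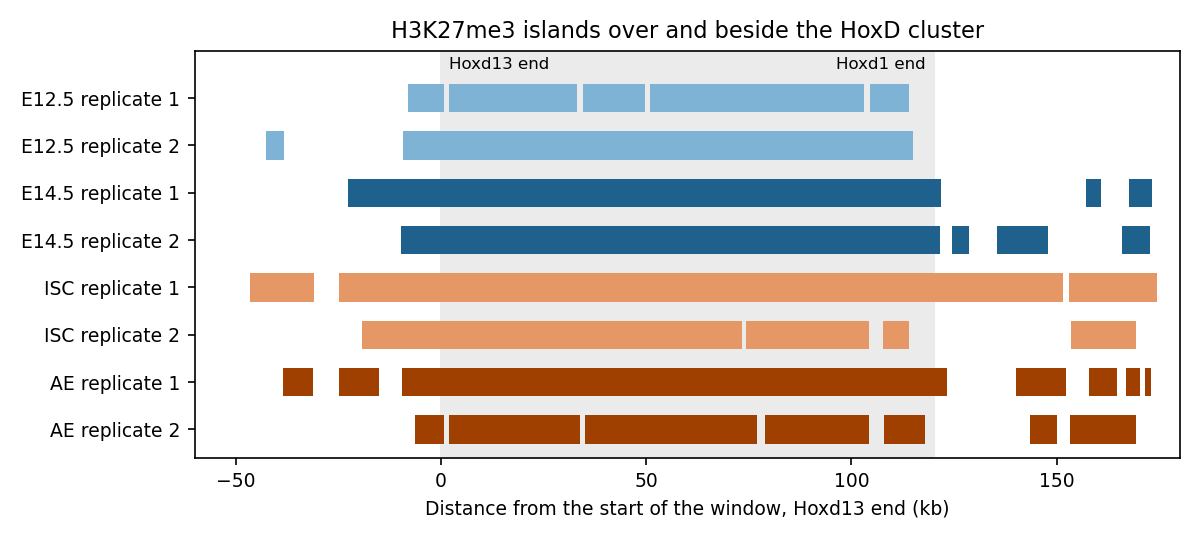
Islands of H3K27me3 in each of the 8 libraries (rows), as bars against the distance in kb from the Hoxd13 end of the window, which is shaded. The domain fills 90.5 to 100% of the window in each library, and islands beyond the Hoxd1 end are seen in all libraries but those of E12.5.

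Of the 600 windows of 200 bp in the cluster, 506 (101.2 kb, 84.3%) were called in all 8 libraries, against 0.417% of such windows over the genome. None was called in fewer than 4. The longest stretch called in all 8 was 31.0 kb, from 74492001 to 74523000, 2.0 to 33.0 kb from the Hoxd13 end. The next were 24.0 kb from 74569001 to 74593000 and 22.4 kb from 74540801 to 74563200. Among the 21980 tiles of 120 kb into which the genome was divided on a fixed grid, 1 had as high a share called in all 8 libraries. It lies on chromosome 15 (102720001 to 102840000), at 88.0%, and overlaps the HoxC cluster. The grid was not placed on the clusters: its own tile over HoxD, from 74520001 to 74640000, leaves out the Hoxd13 end and had 60.5%, after the HoxC tile and a HoxB tile at 69.5% and level with a tile on chromosome 1 at 60.5% (78120001 to 78240000).

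The uncalled places were short and recurred. There were 10 gaps inside the domain, 1.2 to 3.8 kb long, in 3 libraries: 4 in E12.5 replicate 1, 2 in ISC replicate 2 and 4 in AE replicate 2. The first lay near the Hoxd13 end, from 74490801 to 74492000 in E12.5 replicate 1 and from 74490601 to 74492000 in AE replicate 2, and in both libraries the next island began at the same border. A second place was open in these same libraries, from 74523001 to 74524600 in E12.5 replicate 1 and from 74523801 to 74525000 in AE replicate 2. Of places inside the domain, 1 near the Hoxd1 end was missed in 3 libraries. It ran from 74593001 to 74594400 in E12.5 replicate 1, from 74594201 to 74597600 in ISC replicate 2 and from 74594201 to 74598000 in AE replicate 2, and the islands before it ended at the same base in the last 2 of these. Only 0.2 kb, from 74594201 to 74594400, was missed in all 3, while 3.2 kb was missed in ISC replicate 2 and AE replicate 2 alone. The remaining 3 gaps were each found in 1 library, at 74539601 to 74540800 (E12.5 replicate 1), 74563201 to 74564400 (ISC replicate 2) and 74567001 to 74569000 (AE replicate 2). Beyond the last island, the end of the window from 74607801 to 74610000 was missed in 4 libraries, both of E12.5, ISC replicate 2 and AE replicate 2. Inside the domain, gaps at the same place thus occurred in libraries of different populations, and in no population did both replicates have them. The uncalled end of the window, in contrast, was shared by both E12.5 replicates. The libraries with gaps inside the domain had 23.7 to 40.4 ChIP reads per kb over their HoxD islands. The 5 without, among them E12.5 replicate 2, had 52.5 to 80.7, so the ranges did not overlap. These counts are not scaled for library size. The fold over control of the pooled HoxD islands, not comparable across lists, did overlap. It was 1.97 to 2.38 in the libraries with such gaps and 2.23 to 5.77 in those without. The part of read density in the gaps was not tested.

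**Figure D2:**
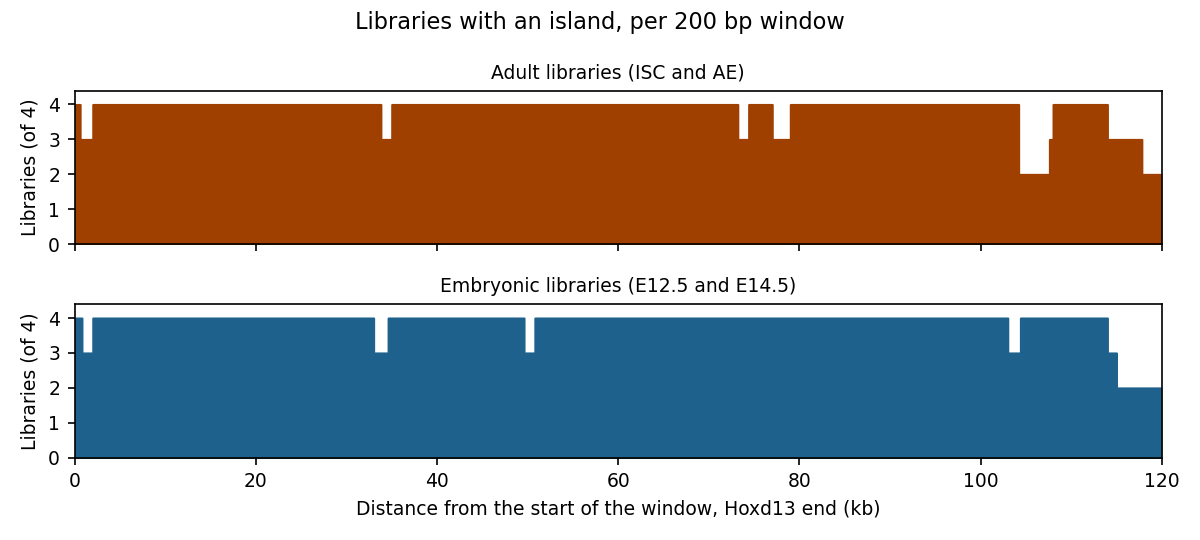
Number of libraries, of 4 adult (upper panel) and 4 embryonic (lower panel), with an island in each 200 bp window, against the distance in kb from the Hoxd13 end of the window. Dips stand near 1, 34 and 104 kb in both panels, and the count is 2 at the Hoxd1 end in both.

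The outer border on the Hoxd13 side lay beyond the window in all libraries, with distances of 8.2 and 9.2 kb (E12.5), 22.8 and 9.8 kb (E14.5), 25.0 and 19.2 kb (ISC), and 9.6 and 6.4 kb (AE). Thus 5 of the 8 borders stood between 6.4 and 9.8 kb from the window, while both ISC libraries and E14.5 replicate 1 reached further, on the side of Evx2. AE replicate 1 also had a separate island there, at -24.8 to -15.2 kb from the window's start, which these borders leave out. Adult libraries reached 6.4 to 25.0 kb and embryonic libraries 8.2 to 22.8 kb beyond, so the groups overlapped, with a difference of means of 2.55 kb (n = 4 each, exact permutation test over libraries, two-sided p = 0.743).

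On the Hoxd1 side the last island ended at positions 74604000 and 74605000 (E12.5), 74611800 and 74611600 (E14.5), 74641600 and 74604000 (ISC), and 74613200 and 74607800 (AE). Both E14.5 libraries reached further than both E12.5 libraries. ISC replicate 1 reached furthest, and ISC replicate 2 ended at the same base as E12.5 replicate 1. Relative to the window's end, adult libraries ended at 6.65 ± 17.1 kb and embryonic libraries at -1.90 ± 4.18 kb (SD, n = 4 each, exact permutation two-sided p = 0.457).

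Cut into its Hoxd13-side and Hoxd1-side 60 kb, the window was covered to 98.6 ± 2.62% on the Hoxd13 side and to 93.5 ± 7.35% on the Hoxd1 side (SD, n = 8 libraries). The Hoxd13 side was higher in 4 libraries, E12.5 replicates 1 and 2 (93.3 against 87.7%, and 100 against 91.7%), ISC replicate 2 (100 against 82.3%) and AE replicate 2 (95.7 against 86.7%). In the other 4 both sides were covered whole. The mean difference was 5.08 percentage points (exact sign-flip permutation test over libraries, two-sided p = 0.125), which is the smallest p that 4 tied libraries leave. With 10 kb added at each end, which takes in the border on the Hoxd1 side, the difference was 13.75 points (exact permutation p = 0.0156), and in a window 10 kb narrower at each end it was 1.95 points (exact permutation p = 0.5), so the size and the call depend on where the window is cut.

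Between age classes no difference in extent was detected. Adult libraries covered 95.6 ± 5.10% of the window and embryonic libraries 96.6 ± 4.51% (SD, n = 4 each), a difference of -1.0 point (exact permutation two-sided p = 1.0). With 2 libraries against 2 no p below 0.333 can be had, so the steps are given as values: E14.5 exceeded E12.5 by 6.83 points, ISC stood 4.42 points below E14.5, and AE and ISC had equal means of 95.6 ± 6.25% (SD, n = 2 each). Directions and sizes changed with the islands admitted: adult minus embryonic was 1.00 point among islands with an FDR up to 1e-10 and 11.7 points among those with a fold of 2 or more (exact permutation p = 1.0 and 0.886), where E14.5 minus E12.5 came to 32.6 points. These shifts rest on E12.5 replicate 1, which fell from 90.5% to 82.5% with that FDR and to 39.0% with that fold. The only other library to change was AE replicate 2, from 91.2 to 90.7% with that fold. Folds are also not comparable across lists.

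At E14.5 against E12.5, 25 of the 600 windows (4.17%) were gained, that is called in both E14.5 libraries and neither E12.5 library, and 0 were lost. Over all windows called at either age, 9.56% were gained and 1.36% lost. All 25 stood in 1 stretch of 5.0 kb at the Hoxd1 end, from 74605001 to 74610000. They were all the windows that neither E12.5 library had called, and both E14.5 libraries covered the whole window, so the count could be neither higher nor lower and is not read against the background. Without E12.5 replicate 2 the gain came to 57 windows. In ISC against E14.5, 0 windows were gained and 0 lost, beside 5.97% and 4.14% over all windows, and in AE against ISC likewise 0 and 0, beside 0.921% and 4.19%. In all 4 adult against all 4 embryonic libraries 0 windows were gained and 0 lost, beside 1.2% and 0.38%. None of these counts could differ from 0, since both E14.5 libraries, ISC replicate 1 and AE replicate 1 covered the whole window, and nothing is read from them. Without ISC replicate 1, 53 windows counted as lost in ISC against E14.5 and 25 as gained in AE against ISC. Without AE replicate 1, 25 counted as lost in AE against ISC.

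Beyond Hoxd1, on the side of Mtx2, separate islands were called at E14.5 and in the adult but not at E12.5. In the 120 kb after the window E12.5 libraries had 0 and 0% covered, E14.5 libraries 9.17 and 20.8%, ISC libraries 45.5 and 13.2%, and AE libraries 24.2 and 19.0%. These shares take in the ends of the HoxD islands themselves where they ran past the window. Such ends made up 1.8 and 1.6 kb (E14.5), 3.2 kb (AE replicate 1), and 31.6 of the 54.6 kb covered in ISC replicate 1. No later library was as low as those of E12.5. At E14.5 against E12.5, 34 windows there (6.8 kb) were gained of 146 called at either age, 23.3%, beside 9.56% in the background. Part of this gain, from 74610001 to 74611600, belongs to the HoxD islands' own ends and not to a separate island. E12.5 had no island in this flank, so no window could be lost and all 146 were called at E14.5. The 23.3% is thus the part called in both E14.5 libraries, and it is not read against the background. The flank was chosen after its values were seen. Called in all 6 later libraries and in no E12.5 library were 1.8 kb, from 74657601 to 74659400. The islands over it had a fold of ChIP over control of 1.34 and 1.82 (E14.5), 1.69 and 1.43 (ISC), and 2.53 and 1.78 (AE), lower than the HoxD islands of the same list except in AE replicate 1 (2.23). Adult libraries covered 25.5 ± 14.1% of this flank and embryonic libraries 7.50 ± 9.88% (SD, n = 4 each, exact permutation two-sided p = 0.0857). On the Hoxd13 side the 120 kb before the window were covered to 19.3 ± 11.9% in adult and 11.3 ± 5.45% in embryonic libraries (SD, n = 4 each, exact permutation two-sided p = 0.286).

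Within each list the HoxD islands ranked high. The fold over control is the authors' own value, in each list the ratio of ChIP to control reads times 1 constant, and is read only against other islands of its list; intervals are exact 95% (Clopper-Pearson) and cover counting error alone, since reads are not independent molecules. The single islands had 6520 ChIP and 2531 control reads in E12.5 replicate 2 (ratio 2.58, fold 4.11, interval 3.92 to 4.30), 11666 and 3325 in E14.5 replicate 1 (ratio 3.51, fold 3.77, 3.62 to 3.92) and 10190 and 3093 in E14.5 replicate 2 (ratio 3.29, fold 5.77, 5.54 to 6.01). They had 10743 and 3410 in ISC replicate 1 (ratio 3.15, fold 4.02, 3.87 to 4.18) and 7960 and 2451 in AE replicate 1 (ratio 3.25, fold 2.23, 2.13 to 2.33). Each was among the longest islands of its list, at 124.2 kb the longest of all in E12.5 replicate 2, at 144.6 kb number 2 in E14.5 replicate 1, at 131.4 kb number 5 in E14.5 replicate 2, at 176.6 kb number 5 in ISC replicate 1, and at 132.8 kb number 4 in AE replicate 1. With the reads of a library's HoxD islands pooled, 94.5% (AE replicate 1) to 99.7% (ISC replicate 1 and E14.5 replicate 2) of the islands in the same list had a lower fold.

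In the libraries with gaps the strength along the cluster could be read island by island, from the Hoxd13 to the Hoxd1 side. E12.5 replicate 1 had folds of 2.03, 2.06, 2.31, 1.86 and 1.59. The third, 15.0 kb from 74524601, had an interval of 2.00 to 2.67 and the last, 9.6 kb from 74594401, one of 1.28 to 1.97, so these did not overlap, and the last exceeded 81.6% of the islands of its list. ISC replicate 2 had 2.33, 2.04 and 2.58, and AE replicate 2 had 1.95, 2.55, 2.18, 2.61 and 2.48. In these adult libraries the last island, at the Hoxd1 end, was not the lowest; its intervals were 2.03 to 3.29 in ISC replicate 2 and 2.05 to 3.02 in AE replicate 2, and it exceeded 99.7% and 97.4% of the islands of the lists. Whether this end differs between E12.5 and adult cells cannot be told from these values, since the fold is not comparable across lists and E12.5 replicate 2 gave 1 undivided island.

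**Figure D3:**
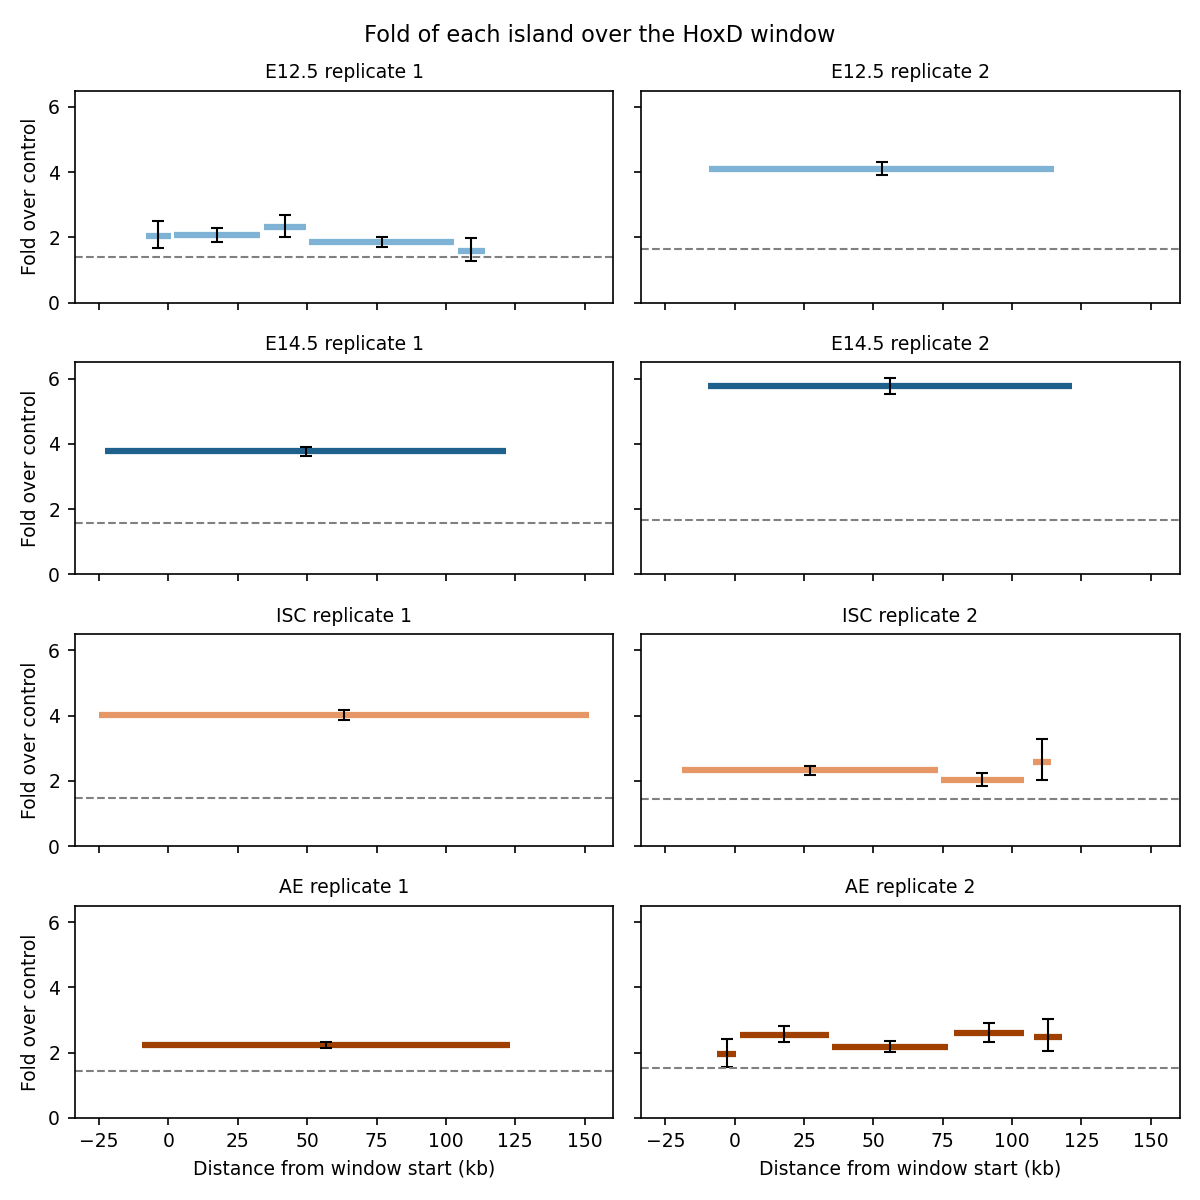
Authors' fold over control (vertical axis, linear) of each island over the HoxD window, drawn from its start to its end in kb from the Hoxd13 end of the window, in a panel per library. Error bars are exact 95% intervals for counting error and the dashed line is the median fold of all islands in that list; all bars stand above it, with the lower limit of the last E12.5 replicate 1 island below it.

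Set beside windows of the same length over the other Hox clusters, HoxD showed no detectable difference in covered share over all libraries. The windows were chosen by hand at chromosome 6 from 52100001 to 52220000 (HoxA), chromosome 11 from 96115001 to 96235000 (HoxB, without its outlying Hoxb13) and chromosome 15 from 102750001 to 102870000 (HoxC). Over the 8 libraries HoxD was covered to 96.1 ± 4.49%, HoxB to 93.6 ± 5.83% and HoxC to 97.7 ± 3.44% (SD, n = 8 each), and HoxA to a mean of 88.8% (63.8 to 100%). The mean differences of 7.25 (HoxA), 2.50 (HoxB) and -1.65 points (HoxC) did not pass the threshold of 0.05 (exact sign-flip permutation p, adjusted over 3 clusters, 0.375, 0.375 and 0.500). The share called in all 8 libraries came to 84.3% at HoxD, 60.7% at HoxA, 73.7% at HoxB and 87.5% at HoxC.

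Within each E12.5 library HoxD and HoxC were covered more widely than HoxA and HoxB. HoxB was at 82.0 and 92.0% in these libraries, so its range overlapped those of HoxD and HoxC. In the E14.5 libraries HoxB was at 94.2 and 91.5%. HoxD was at 90.5 and 95.8% in the E12.5 libraries, where HoxA was at 63.8 and 68.8%; HoxA then had 87.8 and 93.7% in the E14.5 libraries and 97.5 to 100% in the adult ones. A share cannot exceed 100%, which HoxD reached in 4 libraries. HoxD minus HoxA was -3.54 ± 4.14 points in adult libraries (-7.83 to 0) and 18.0 ± 10.4 points in embryonic libraries (6.33 or more; SD, n = 4 each), so the groups did not overlap. The difference of -21.6 points had an exact permutation p of 0.0286, the smallest that 4 libraries against 4 allow, and 0.0429 adjusted over 3 clusters. Each age class holds only 2 populations, whose replicates were counted as separate units. With populations as units, 2 against 2, no exact permutation p below 0.333 can be had. HoxD minus HoxB was -1.67 ± 2.81 points in adult and 6.67 ± 2.27 points in embryonic libraries (SD, n = 4 each, adjusted exact permutation p = 0.0429). HoxC, like HoxD, was high at each age, with 90.3 and 95.3% (E12.5), 100 and 100% (E14.5), and 97.2 to 100% in the adult libraries. HoxD minus HoxC was -3.46 ± 4.06 and 0.167 ± 0.236 points in adult and embryonic libraries (adjusted exact permutation p = 0.171). This comparison was added after the values were seen. The calls for HoxA and HoxB were lost, at differences of like size, with any adult library left out: without ISC replicate 1 or 2, or AE replicate 1 or 2, the adjusted p was 0.0857, with differences of -22.8, -20.2, -22.8 and -20.7 points for HoxA and -8.89, -8.61, -8.89 and -6.94 points for HoxB. They were also lost among islands with a fold of 2 or more (-20.1 points for HoxA, 16.6 for HoxB), where HoxB kept no island in AE replicate 1, and E12.5 replicate 1 had 39.0% of HoxD covered, below the 52.3% of HoxA.

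**Figure D4:**
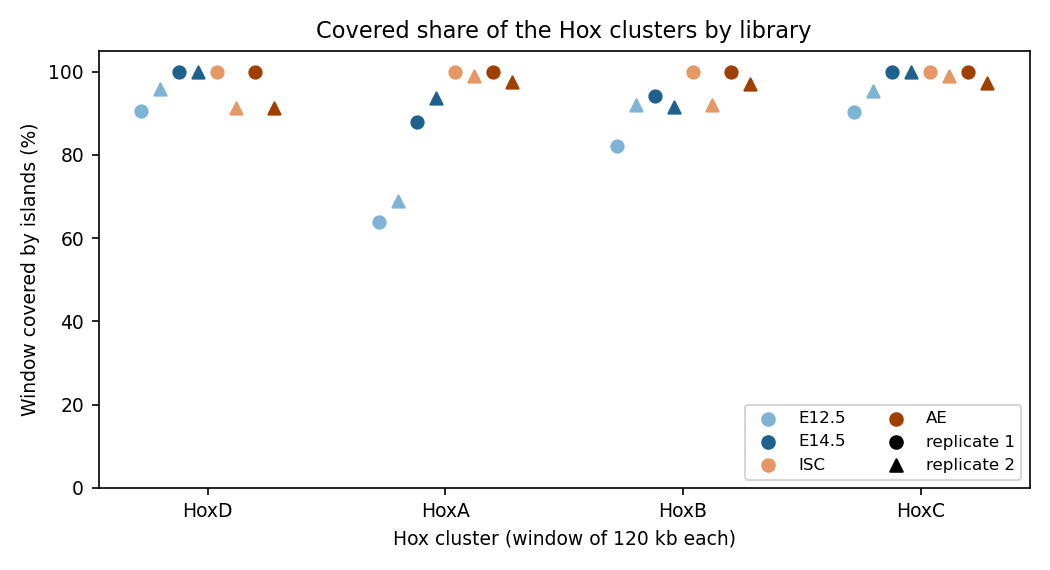
Share of each 120 kb window covered by islands (%), for HoxD, HoxA, HoxB and HoxC, with 1 point per library, coloured by population and shaped by replicate. HoxD stays at or above 90.5% in all libraries, while HoxA starts at 63.8 and 68.8% in the E12.5 libraries.

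In strength, with reads of all islands over a window pooled within a list, HoxD exceeded HoxB in 8 of 8 libraries, by 0.26 ± 0.19 on the log2 scale (SD, n = 8, exact sign-flip permutation p = 0.00781, adjusted over 3 clusters 0.0234). It exceeded HoxA in 6 of 8, by 0.06 ± 0.17 (adjusted exact permutation p = 0.297), and stood below HoxC in 7 of 8, by -0.024 ± 0.061 (adjusted exact permutation p = 0.297). Both replicates of a population had 1 input between them, so the 8 differences in each of these tests are not independent. The p-values count libraries and not populations as units. Without E14.5 replicate 2, the difference from HoxC was -0.042 with an adjusted exact permutation p of 0.0234. That was the sole library in which HoxD had the higher fold (5.77 against 5.37). Leaving it out put all remaining differences on the same side, which by itself sets the unadjusted p at its smallest, so nothing is read from this call. The islands can reach beyond the 120 kb windows, and in ISC replicate 1 they were 176.6 kb long at HoxD, 243.6 kb at HoxB and 270.2 kb at HoxC, so these ratios describe the domains and not the clusters alone; this comparison too was added after the values were seen.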

How the data were processed

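H3K27me3 was measured by chromatin immunoprecipitation and sequencing in 8 libraries, with 4 inputs that enter only through the control columns. Per the labels, 250000 sorted cells were fixed and sonicated to fragments of about 350 to 700 bp. SICER 1.1, SAMtools 1.2, Bowtie 1.1.2, bcl2fastq 1.8.4 and the build mm9 are named in the submitters' processing notes. The deposited lists have no header and their columns were identified from the values. The authors counted ChIP and control reads in each island, and these counts are not normalized. The deposited p-value and FDR of each island (FDR at most 0.01) were made by the authors against the control. The fold column, as deposited, equals ChIP over control reads times 1 constant in each list, a scaling set by the authors. Islands were called per library, and SICER joins enriched windows, so weak or shallow stretches break an island. No gap inside the HoxD domain was shorter than 1.2 kb, so shorter stretches without enrichment may count as covered. All borders stood on a 200 bp grid.

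Islands were painted on that grid (Python 3.11.15, numpy 2.4.6, scipy 1.17.1), 1-based. Covered shares were compared by exact permutation tests over libraries, two-sided, with Benjamini-Hochberg adjustment over clusters; the functions were tested on simulated data. All islands over the cluster are named, and of stretches the longest of each kind. The members, windows and tests were chosen with earlier results of these data known. Alternatives were stricter FDR or fold, equal covered length, windows 10 kb wider or narrower at each end, and leaving out each library.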

Additional observations from a re-analysis of the deposited data

Results flagged for a closer look

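In the Hoxd13-side 60 kb, AE replicate 2 was covered to 95.7% while the other 3 adult libraries were at 100%, and E12.5 replicate 1 was covered to 93.3% while the other 3 embryonic libraries were at 100%; with 3 libraries tied at 100%, any lower value stands apart, so nothing is read from either. On the Hoxd13 side E14.5 replicate 1 reached 22.8 kb beyond the window, against 8.2, 9.2 and 9.8 kb in the other embryonic libraries. Chance alone sets apart about 1 in 20 groups without such ties. The covered share of HoxD relative to HoxA differed between adult and embryonic libraries by -21.6 points, and relative to HoxB by -8.33 points (adjusted exact permutation p = 0.0429 for each). Libraries and not populations were the units of these tests.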

How the results depend on the processing

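Of 247 recomputed values for 23 results, 216 kept their direction and side of the threshold, or moved by less than the replicate spread. Counts of windows were held to have stayed if equal or close. Many of the 216 are counts of windows gained or lost that stood at 0 and could not differ from 0, as said above. The total is thus no measure of how stable the results are. Adult against embryonic coverage of HoxD, never past the threshold, turned to 1.00 point at an FDR up to 1e-10 and 11.7 points at a fold of 2 or more, and ran from -3.03 to 0.472 points with 1 library left out. E14.5 minus E12.5 was 10.8 points with that FDR, 32.6 with that fold and 2.10 with the window 10 kb narrower at each end, and 4.17 to 9.50 with a library left out, where 25 to 57 windows were gained. Under that FDR and that fold the coverage of HoxD in E12.5 replicate 1 fell to 82.5 and 39.0%, on which these shifts rest. With a library left out, ISC minus E14.5 ran from -8.83 to 0 points with 0 to 53 windows lost, and AE against ISC gained 0 to 25 and lost 0 to 25. The Hoxd13-side minus Hoxd1-side difference was 13.75 points in the window 10 kb wider at each end. With a fold of 2 or more, 228 windows were called in all 8 libraries, and the age difference of HoxD relative to HoxA, HoxB and HoxC was -20.1, 16.6 and 5.50 points (adjusted exact permutation p from 0.429 to 1.0); that filter left 2.11 Mb of E12.5 replicate 1. With a library left out these age differences ran from -25.5 to -18.6 points (HoxA) and from -9.28 to -6.94 points (HoxB), and the log2 fold of HoxD minus HoxC from -0.042 to -0.013. The causes were not tested. Permuting within replicate number (replicate block) left the adult against embryonic difference at -1.0 point (exact permutation p = 1.0). Same-numbered libraries hardly deviated together (correlations from -0.029 to 0.048), so the numbers are not read as pairs. Whole-library depth is unknown, and a stretch outside islands was not called, which does not show that the mark is absent.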
